A study of Mus musculus with 9 samples.

Results

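The mouse genome holds 4 genes of the NF-1 (nuclear factor 1, also NFI) transcription factor family, Nfia, Nfib, Nfic and Nfix, and all 4 carried glucocorticoid receptor (GR) and mineralocorticoid receptor (MR) peaks after corticosterone (CORT). A peak was assigned to a gene when its summit, the base of highest signal, lay in the gene body or within 20 kb of either end in the GENCODE release M21 annotation. By this rule, 38 of the 30508 peaks in 6 lists belonged to the NF-1 genes. GR contributed 16 of its 10602 CORT peaks and MR 17 of its 14638. After washout, GR contributed 1 of 246 peaks and MR 4 of 4885. None of the 64 GR and 73 MR vehicle peaks lay there.

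The peaks were mapped by ChIP-nexus, in which an exonuclease trims immunoprecipitated DNA towards the bound protein. All cells were Neuro2A (N2A), a mouse neuroblastoma line, and every group was transiently transfected with both receptors, GR carrying an EGFP tag and MR an mCherry tag. The 3 treatments were vehicle, 100 nM CORT for 20 min, and the same CORT exposure followed by 2 washes and 40 min without steroid (washout). Inputs without immunoprecipitation accompanied each treatment, and the 9 samples thus comprise 6 receptor lists and 3 inputs. The receptors are introduced from plasmids, and the labels and the methods name different species (mouse and rat) for their coding sequences. Each list was called on 3 samples combined, so these lists give no spread between replicates and no difference below was tested. Intervals cover counting error only. Gene expression was not analysed here, so neither the identity of the cells nor the expression of the NF-1 genes could be checked.

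NF-1 proteins bind DNA as dimers at an inverted repeat of TTGGC separated by 5 bases, and they activate some genes and repress others. In the developing nervous system they are known for moving neural progenitors from self-renewal into differentiation, with Nfia tied to the onset of gliogenesis and Nfib and Nfix to neuronal and glial maturation. Nfic is best known for its part in tooth root formation. GR and MR bind the glucocorticoid response element (GRE), an inverted repeat of AGAACA separated by 3 bases.

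The sequences under the peaks that the following account turns on are given on the plus strand of the GRCm38 (mm10) RefSeq assembly. The Nfix stretch is shared by the peaks of 4 lists, and its capitals mark a pair of exonuclease borders found after washout. In the next 4 lines, which show 2 strong or persistent Nfib sites, an Nfix upstream site and the MR peak of Nfia, capitals mark the 15-base stretch closest to a GRE. The last line is the closest stretch to the NF-1 sequence at any peak summit of the family, again in capitals.
Nfix intron, chr8:84739511-84739598: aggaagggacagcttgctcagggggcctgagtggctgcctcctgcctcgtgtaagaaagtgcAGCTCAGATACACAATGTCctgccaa
Nfib intron, chr4:82485932-82485981: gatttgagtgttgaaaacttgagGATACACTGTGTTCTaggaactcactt
Nfib washout, chr4:82498207-82498247: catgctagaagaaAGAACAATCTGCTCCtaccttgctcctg
Nfix upstream, chr8:84815626-84815666: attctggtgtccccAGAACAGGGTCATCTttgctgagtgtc
Nfia intron, chr4:97814672-97814714: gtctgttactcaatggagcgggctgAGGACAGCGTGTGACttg
Nfic intron, chr10:81408082-81408122: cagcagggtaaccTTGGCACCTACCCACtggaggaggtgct

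Counting mismatches over the 12 fixed bases of the GRE, the Nfib washout and Nfix upstream stretches had 2, the Nfib intron stretch had 3 and the Nfia stretch had 4. In the Nfix intron stretch the closest match also had 4 mismatches. The Nfic stretch had 2 mismatches over the 10 fixed bases of the NF-1 sequence.

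Joined wherever they overlapped, the 38 peaks formed 24 sites. Nfib and Nfix had 8 each, Nfic had 7 and Nfia had 1. At 8 sites both receptors had a CORT peak, at 8 GR had one without MR, and at 7 MR had one without GR. The remaining site, in Nfib, was listed for MR after washout only. Of the 8 sites with both receptors, 5 were in Nfib, 2 in Nfix and 1 in Nfia. Nfic had none.

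**Figure D1:**
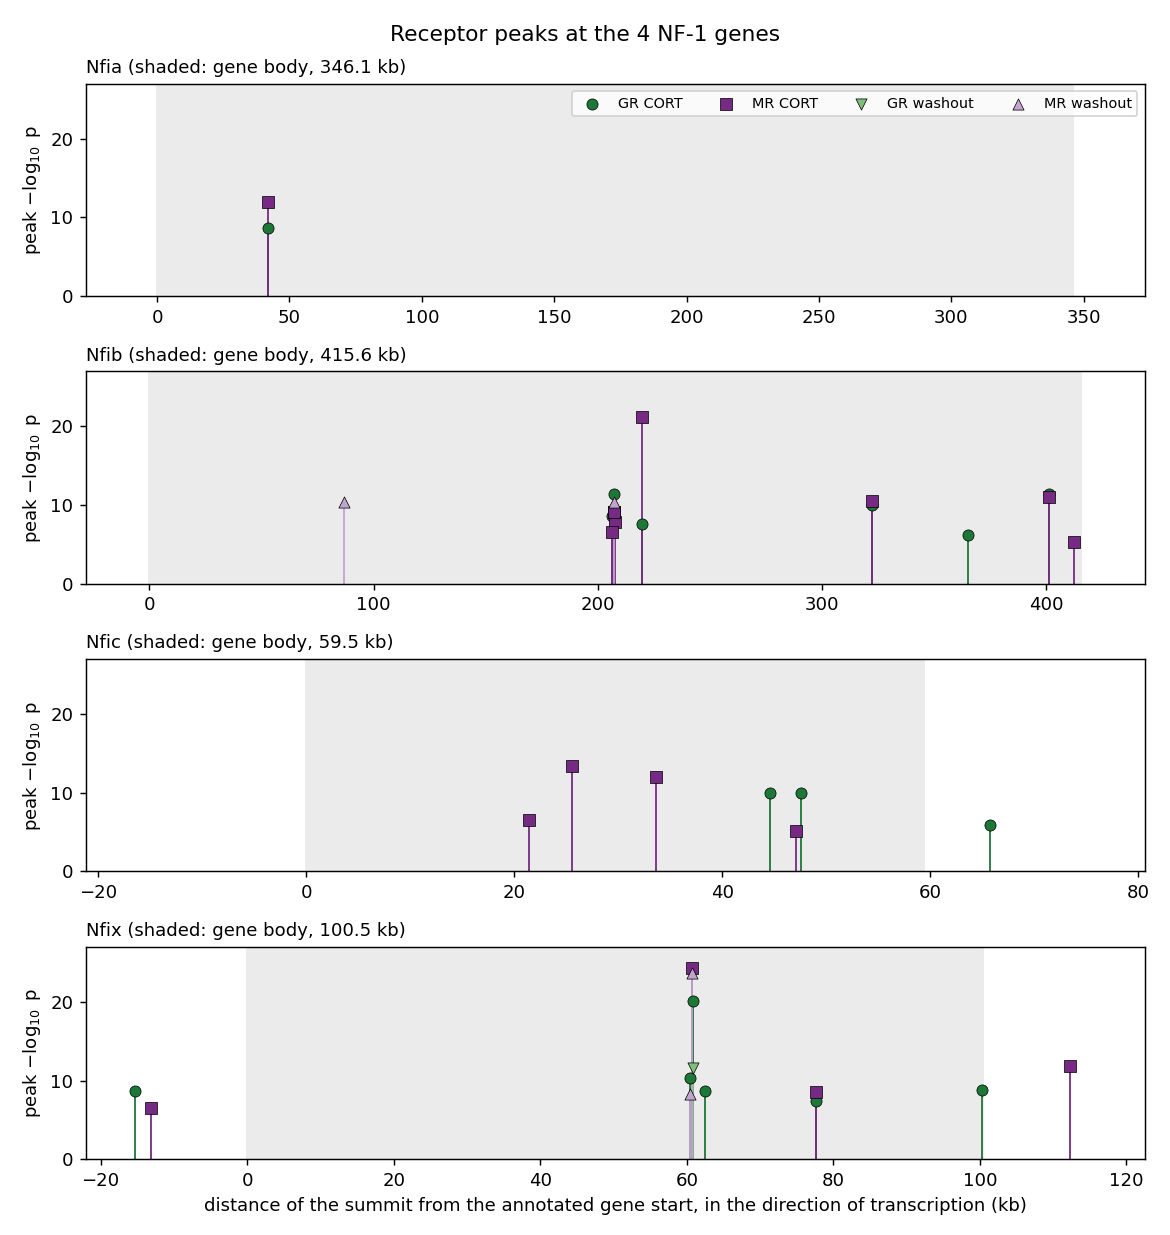
Each panel shows 1 NF-1 gene, with the distance of the peak summit from the annotated gene start in kb on the x axis and the −log10 p of the peak on the y axis. Circles are GR CORT, squares MR CORT, downward triangles GR washout and upward triangles MR washout peaks, and the shaded area is the gene body. Peaks of 4 lists coincide in the Nfix intron, whereas Nfia holds a single shared place near 42.0 kb.

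Nfix (ENSMUSG00000001911.16, chr8:84699876-84800344, minus strand, 100.5 kb) held the strongest and most persistent site of the family. It lies 60.8 kb downstream of the annotated start, in intron 2 of the longest coding transcript, Nfix-202. The GR CORT peak there had a −log10 p of 20.09 and ranked 429 in its list. The MR CORT peak had a −log10 p of 24.29 and ranked 479. In both lists fewer than 5 in 100 peaks were stronger, 4.04% for GR and 3.27% for MR.

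After washout both receptors were still listed at the Nfix intron site. MR had a −log10 p of 23.65 and ranked 188, with 3.83% of the MR washout peaks stronger. GR had a −log10 p of 11.56 and ranked 93, with 37.4% of the far shorter GR washout list stronger. The value of −log10 p rises with read depth, which the lists do not give, so ranks can be set side by side within a list and the values cannot be compared between lists. It was the only place at the 4 genes with a GR washout peak.

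The summits at this site lay close together. Those of MR after CORT and after washout were 2 bp apart, and that of GR after CORT was 17 bp from that of MR. The GR washout summit was 58 bp from the MR CORT summit and fell in sequence marked as repeat in the assembly, as did 12 of the 88 bases that all 4 peaks share. A border pair, the outer limits of a protected footprint as called by MACE, lay inside all 4 peaks in the MR washout sample at chr8:84739573-84739591 (19 bp). The pair includes the MR CORT and MR washout summits.

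**Figure D2:**
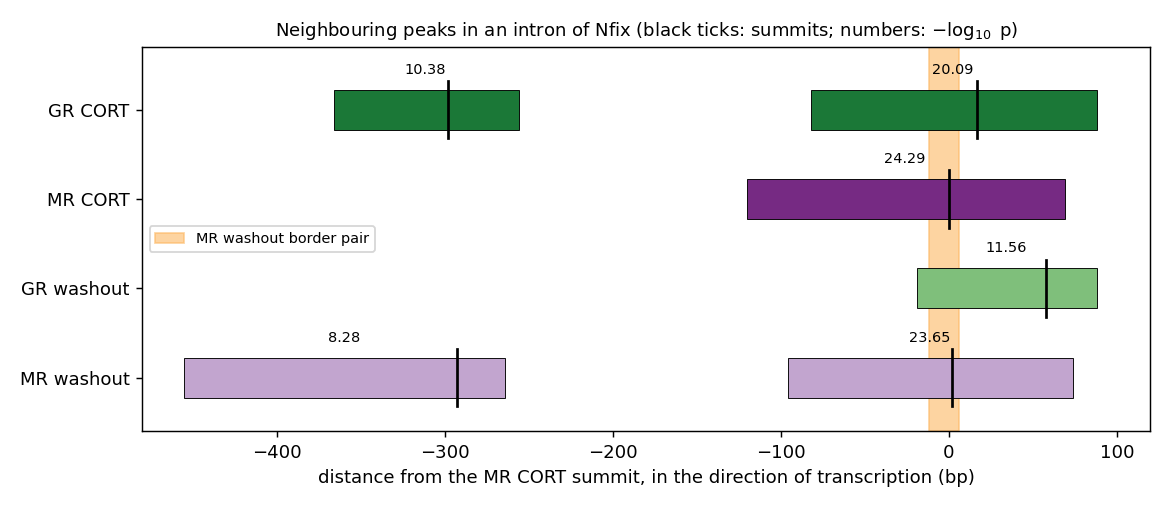
Bars show the extent of each peak in the Nfix intron in 4 lists, placed by distance from the MR CORT summit in bp, with a black tick at the summit and the −log10 p above. The 4 peaks at the right share 88 bp around the MR washout border pair (shaded, 19 bp), and the pair of peaks at the left has no MR CORT or GR washout counterpart.

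A second pair of peaks stood next to it, 60.5 kb from the Nfix start. GR CORT had a −log10 p of 10.38 there (rank 3288) and MR washout 8.28 (rank 3119), with summits 5 bp apart. No MR CORT peak was listed at that place. Among the 24 sites it was the only one with GR after CORT and MR after washout but no MR after CORT.

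The other Nfix sites were weaker. GR alone had a peak 15.3 kb upstream of the start, in the body of the neighbouring gene Dand5, which encodes a Nodal antagonist, with a −log10 p of 8.66 and the GRE-like stretch shown above 1 bp from the summit. MR alone had a peak 13.1 kb upstream (6.54) and another 112.3 kb downstream of the start (11.81), beyond the 3' end of Nfix in the body of Trmt1, a tRNA methyltransferase gene. The latter summit was 176 bp from the start of Nacc1. Both receptors had a CORT peak at 77.6 kb, with a −log10 p of 7.45 for GR and 8.60 for MR. Here the summits were 18 bp apart and 246 bp (GR) and 264 bp (MR) upstream of the start of G430095P16Rik, outside that gene. GR alone had peaks at 62.5 kb (8.66) and at 100.2 kb (8.76), the latter in an exon of a non-coding Nfix transcript and with its summit in a repeat. That summit was 1331 bp upstream of the start of Lyl1. No CORT peak of either receptor lay nearer to the annotated start of Nfix than 13.1 kb.

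Nfib (ENSMUSG00000008575.17, chr4:82290173-82705750, minus strand, 415.6 kb) was the longest of the 4 genes and had the most peaks, with 6 for GR and 8 for MR after CORT and 2 for MR after washout. The gene's annotated start belongs to a single coding transcript, Nfib-212. The other coding transcripts start in a cluster up to 200.4 kb downstream of it, and the CORT peaks of both receptors all lay between 206.2 and 412.3 kb, within these transcripts.

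The strongest Nfib peak was an MR CORT peak in the second intron of Nfib-203, 219.8 kb from the gene start and 19351 bp from the start of Nfib-201. It had a −log10 p of 21.23 and ranked 643, with 4.39% of MR CORT peaks stronger. GR was listed at the same site with a −log10 p of 7.57, and 65.5% of the GR CORT peaks were stronger. The GRE-like stretch was centred 5 bp from the MR summit, and the GR summit was 61 bp away from that of MR. The site was absent from both washout lists.

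A coding exon 207.4 kb from the gene start carried the only Nfib site listed both after CORT and after washout. GR had a CORT peak of −log10 p 11.36 there and MR had 3 neighbouring CORT peaks of 7.83, 9.17 and 9.17, of which the weakest had its summit in a non-coding exon. MR washout had a single peak with a −log10 p of 10.38 that was 244 bp wide and overlapped 2 of the 3 MR CORT peaks. Its summit fell on the same base as that of an MR CORT peak, 7001 bp from the start of Nfib-201. It was 74 bp from the GR summit. The GRE-like stretch lay 80 bp from the MR summit.

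Close by, at 206.2 kb, both receptors had a weaker site, with a −log10 p of 8.66 for GR and 6.54 for MR and summits 22 bp apart. These were the CORT peaks nearest to the cluster of coding starts, 5760 bp (GR) and 5738 bp (MR) from that of Nfib-201. Towards the 3' end, both receptors were listed at 322.3 kb (9.99 for GR, 10.55 for MR) and at 401.3 kb (11.36 for GR, 11.08 for MR). In the latter site the peaks spanned 412 bp for GR and 388 bp for MR, and the MR CORT sample had a border pair of 85 bp inside both peaks. GR alone had a peak at 365.2 kb (6.15) and MR alone at 412.3 kb (5.31), in an untranslated exon.

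The last Nfib site was an MR washout peak with no CORT peak of either receptor. It lay 86.6 kb from the gene start, in the long intron of Nfib-212 (chr4:82619121-82619164). The peak had a −log10 p of 10.38, the same as the washout peak in the coding exon, and both ranked 1810, with 37% of their list stronger. Its closest match to a GRE had 4 mismatches.

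Nfic (ENSMUSG00000055053.18, chr10:81396186-81455635, minus strand, 59.5 kb) had 3 GR and 4 MR CORT peaks, none of which overlapped a peak of the other receptor, and none after washout. With so few peaks this says little. In the whole lists, 61% of GR and 47.6% of MR CORT peaks overlapped the other receptor, and 2.13% and 24.6% their own washout list. The strongest Nfic peak was an MR peak of −log10 p 13.44, with 17.3% of its list stronger, in an intron 944 bp downstream of the start of Nfic-204. The bases within 100 bp of this summit were 71.6% G and C, the highest share at the 4 genes, and held no stretch within 4 mismatches of a GRE. The other MR peaks had values of 11.98 (33.7 kb), 6.54 (21.4 kb) and 5.20 (47.1 kb).

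GR had 2 equally strong peaks in Nfic, both of −log10 p 9.99, at 44.6 and 47.5 kb. The former lay in the antisense gene Gm16104 as well. The latter was the CORT peak closest to an annotated start of its own gene, 448 bp upstream of that of Nfic-205, and carried the NF-1-like stretch shown above, centred 13 bp from its summit. The weakest MR peak of Nfic lay 924 bp upstream of the same start. Its summit was 476 bp from that of the GR peak, and the peaks did not overlap. A GR peak of 5.86 stood beyond the 3' end of the gene, in Gm48551 and Gm48552.

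Nfia (ENSMUSG00000028565.18, chr4:97772734-98118874, plus strand, 346.1 kb) had a single site, shared by the receptors after CORT. It was in intron 2 of Nfia-202, 42.0 kb from the gene start. GR had a −log10 p of 8.66 (48.9% of its list stronger) and MR 11.98 (23.3% stronger). The summits were 39 bp apart. Nothing was listed at Nfia after washout, and the next MR CORT peak beyond the window was 96.5 kb from the gene.

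In strength the NF-1 peaks spread through their lists. The median −log10 p of the 16 GR CORT peaks was 8.71 and that of the whole GR CORT list 8.66. For MR the medians were 9.17 at the 4 genes and 9.17 in the list. Of the 16 GR peaks 8 lay above the list's median, 3 equalled it and 5 lay below, and of the 17 MR peaks 8 lay above, 2 equalled it and 7 lay below. Above the list's 90th percentile were 1 GR and 2 MR CORT peaks, the Nfix intron site in both lists and the Nfib intron site for MR.

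**Figure D3:**
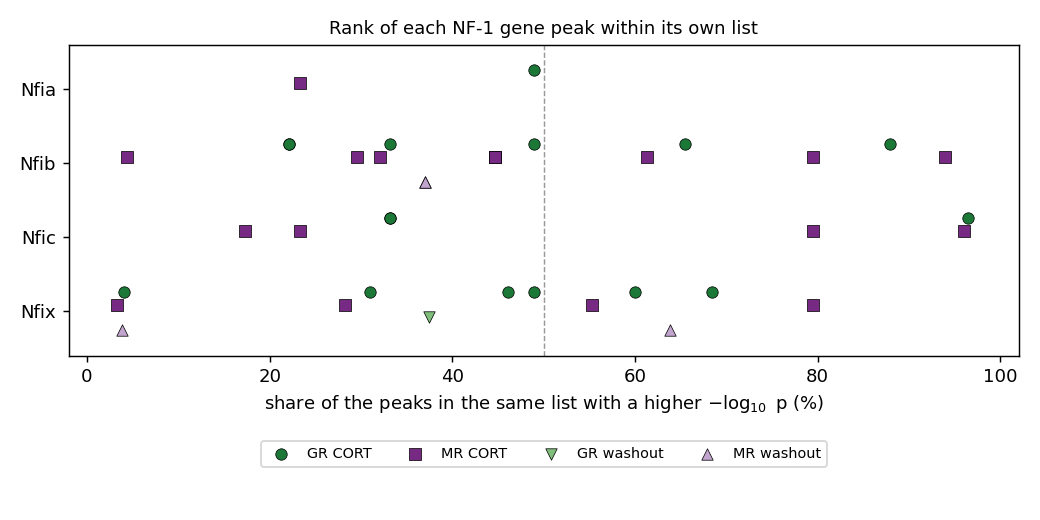
Each mark is 1 peak, placed by the percentage of its own list that has a higher −log10 p (x axis) and by gene (rows), with the same symbols for the 4 lists as above and a dashed line at the middle of a list. Marks with equal values cover each other. The Nfix intron site lies between 3.27% and 4.04% for GR CORT, MR CORT and MR washout, and the other peaks are scattered over the whole range.

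Most CORT summits lay in introns. Gene body makes up most of each window, and the intronic share over the whole lists was not taken, so the places are counts only. Introns held 12 of the 16 GR and 11 of the 17 MR CORT summits, coding exons 1 GR and 2 MR, an untranslated exon 1 MR, and non-coding exons 1 of each, and 2 of each lay outside the gene body. Within 1 kb of the start of any protein-coding transcript, neighbouring genes included, were 3 of the 16 GR summits, against 10.2% of the GR CORT list, and 4 of the 17 MR summits, against 7.75% of the MR CORT list. The median distance to such a start was 11 kb for GR and 7 kb for MR, compared with 21.3 and 23.5 kb over the lists. Both comparisons are affected by the rule that chose the members, whose summits had to lie in or within 20 kb of a gene. On the main chromosomes, 8366 of 10569 GR and 11428 of 14565 MR CORT peaks lay in such windows of protein-coding genes. The distances are therefore not compared like with like.

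Because the genes differ in length, peak numbers were set against the length of each window. Per 100 kb, GR CORT had 0.259 peaks at Nfia, 1.32 at Nfib, 3.02 at Nfic and 4.27 at Nfix. For MR CORT the values were 0.259, 1.76, 4.02 and 2.85. Nfia was thus the sparsest and Nfib the next for both receptors, while the order of Nfic and Nfix depended on the receptor. With so few peaks the Poisson intervals of neighbours in this order overlapped (for GR CORT, 0.0066 to 1.44 at Nfia and 0.483 to 2.87 at Nfib, and 0.622 to 8.82 at Nfic and 1.57 to 9.3 at Nfix).

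Taken as 1 region, the 4 windows had 1.48 GR CORT peaks per 100 kb (0.846 to 2.4) and 1.57 MR CORT peaks (0.916 to 2.52). The windows of all protein-coding genes had 0.586 and 0.8. The ratio of the 4 genes to that background was 2.53 (1.44 to 4.1) for GR and 1.97 (1.14 to 3.15) for MR. After washout, with 1 GR and 4 MR peaks, it was 6.88 (0.174 to 38.3) for GR and 1.41 (0.385 to 3.61) for MR, and both intervals include 1. These intervals treat peaks as independent, although neighbouring peaks cluster. Without Nfix the density fell to 1.06 for GR and 1.38 for MR, and without Nfia it was 2.16 and 2.3. Without Nfib it was 1.6 and 1.44, and without Nfic 1.32 and 1.32. No interval was taken for these densities. The ratio describes the 4 windows together and not each gene. Alone, Nfia and Nfib had intervals that include the background density for both receptors, as did Nfix for MR (0.776 to 7.29).

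Over the 4234 other protein-coding genes with a window of at least 100 kb, the median density was 0 in every list. These genes are not matched in length to Nfia and Nfib, whose windows span 386.1 and 455.6 kb. Of these genes, 2.43% were denser than Nfix for GR CORT and 9.47% for MR CORT. For Nfib the shares were 16.4% and 17.6%, and for Nfia 38.3% and 44.5%. At Nfic, whose own window is 99.5 kb, 4.96% and 5.27% of 4235 genes were denser.

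All 4 genes had at least 1 GR CORT and 1 MR CORT peak. Over 21938 protein-coding genes, 26.3% had a GR CORT peak in the same reach and 30.2% an MR CORT peak. Among the genes with a window of at least 100 kb the shares were higher, 39.5% and 45.8%. These shares are not matched for length, since the Nfia and Nfib windows span 386.1 and 455.6 kb and a longer window is likelier to hold a peak. A peak at all 4 genes is therefore not read as an excess. After washout 1 of the 4 genes (Nfix) had a GR peak, against 1.02% of all protein-coding genes and 2.15% of those with a window of at least 100 kb. An MR washout peak was found at 2 (Nfib and Nfix), against 14.3% and 27.1%. Vehicle lists reached 0 of the 4, against 0.109% for GR and 0.109% for MR.

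**Figure D4:**
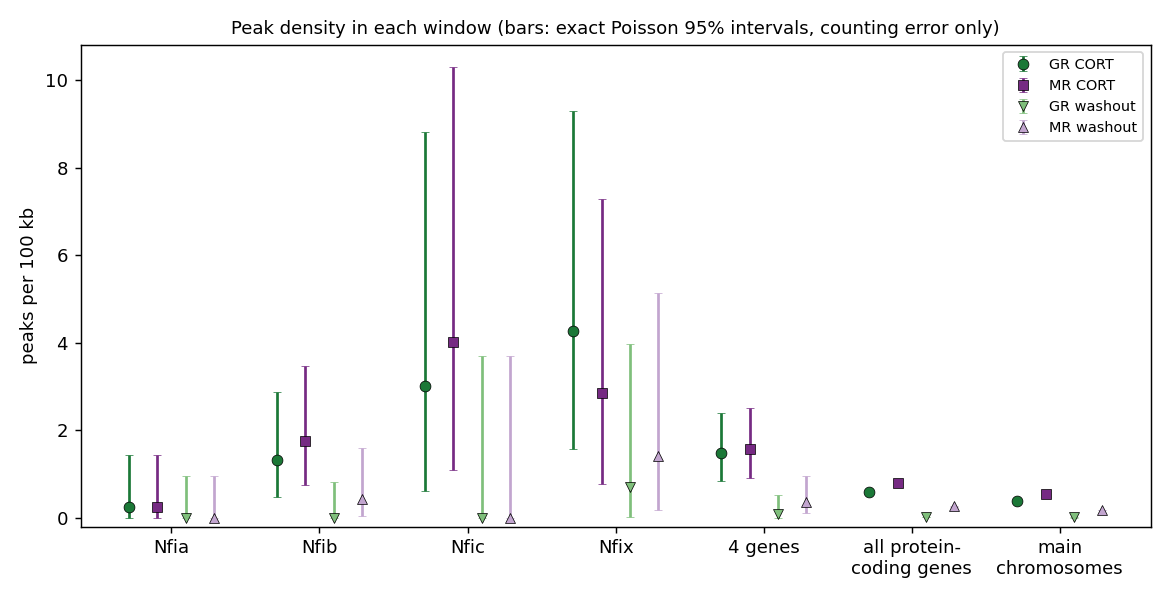
The y axis gives peaks per 100 kb of window for each NF-1 gene, for the 4 genes as 1 region, for all protein-coding genes and for the main chromosomes, with symbols for the 4 lists as above and bars for exact Poisson 95% intervals. GR CORT runs from 0.259 at Nfia to 4.27 at Nfix, against 0.586 for all protein-coding genes.

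Nfic and Nfix also stood in denser surroundings than Nfia and Nfib. In the 1 Mb on each side of the window, GR CORT had 0 peaks per 100 kb around Nfia, 0.15 around Nfib, 1.15 around Nfic and 1.1 around Nfix, and MR CORT had 0.25, 0.5, 1.15 and 1.7. Chromosome 8, which carries Nfix, had 0.951 GR CORT peaks per 100 kb (0.778 outside the annotated gene Gm20388), compared with 0.332 for chromosome 4 and 0.513 for chromosome 10. Its inputs also had more border pairs, 9.87 to 11.6 per Mb against 1.53 to 1.71 on chromosome 4 and 1.62 to 1.95 on chromosome 10. The part of this in the Nfix density was not tested. Of the input border pairs, 2 after CORT and 1 after washout lay in the Nfix window, and none overlapped a peak there.

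The overlap of the receptors at the NF-1 genes differed from that of the whole lists by less than its counting error. MR CORT peaks overlapped 8 of the 16 GR CORT peaks by at least 1 bp (50%, Wilson 95% interval 28 to 72), compared with 61% of the whole list. Conversely, GR CORT peaks overlapped 9 of the 17 MR CORT peaks (52.9%, 31 to 73.8), compared with 47.6%. The nearest GR and MR summits at the 8 shared sites were 17 to 79 bp apart, with a median of 45.5 bp, and over the 6471 overlapped peaks of the GR CORT list the median was 26 bp. At 50 bp or less, 4 of the 16 GR summits (25%) had an MR summit, against 45.5% in the list.

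Few CORT sites at the NF-1 genes were listed after washout. MR washout peaks overlapped 3 of the 17 MR CORT peaks (17.6%, 6.19 to 41), of which 2 belonged to the Nfib site at 207.4 kb and 1 to the Nfix intron site, compared with 24.6% of the list. They also overlapped 3 of the 16 GR CORT peaks, compared with 28.2%. GR washout overlapped 1 of the 16 GR CORT peaks, compared with 2.13%. In the other direction, 2 of the 4 MR washout peaks overlapped an MR CORT peak, against 75.7% of the MR washout list, and the single GR washout peak overlapped a GR CORT peak, as did 89.8% of its list. All of these shares rest on 3 peaks or fewer and their intervals include the value of the whole list.

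GRE-like stretches, with at most 3 mismatches within 100 bp of the summit, were found at 5 of the 16 GR CORT peaks (31.2%, 14.2 to 55.6) and 7 of the 17 MR CORT peaks (41.2%, 21.6 to 64). Most of these peaks were in Nfib. The only others were the GR peak 15.3 kb upstream of Nfix and the MR peak 112.3 kb from its start, both outside the gene body. The neighbouring Nfib MR CORT peaks at 207.4 and 207.6 kb shared 1 stretch, which was counted for each, although the intervals treat peaks as independent. Over the whole lists the shares were 37.7% and 39.9%, and in windows of the same length 1 kb away from the summits 14.6% and 15.2%. Of the 4 MR washout peaks 1 had such a stretch, against 45.5% of the list. None of the 4 peaks at the Nfix intron site was among them. An exact AGAACA or its reverse complement stood within 100 bp of the GR CORT, MR CORT and MR washout summits at that site, but not of the GR washout summit. This exact sequence, looked for after the other matches had been seen, stood at 9 of the 16 GR CORT peaks of the family (56.2%, 33.2 to 76.9), compared with 32.5% of the list, and at 8 of the 17 MR CORT peaks (47.1%, 26.2 to 69), compared with 34.2%. The MR count again includes the neighbouring Nfib peaks that share 1 copy.

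NF-1-like stretches, with at most 2 mismatches, were sought in the same windows. Only the GR CORT peak of Nfic described above had one (1 of 16), compared with 9.29% of the GR CORT list and 6.53% of the windows 1 kb away. None of the 17 MR CORT peaks had one, against 8.6% of the list, and none of the 4 MR washout peaks, against 9.65%. With these numbers of peaks, a share as high as 28.3% for GR CORT and 18.4% for MR CORT lies within the 95% interval.

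Outside the family, 7 genes tied to NF-1 factors in neural cells were counted in the same way. Gfap, an astrocyte intermediate filament gene that NF-1 factors are known to activate, had 3 GR CORT, 7 MR CORT and 5 MR washout peaks in a window of 53.6 kb, with highest −log10 p values of 15.30, 16.47 and 17.09. Ezh2, which encodes the histone methyltransferase of the Polycomb repressive complex, had 1 MR CORT peak (8.60) and 1 MR washout peak (9.01). No peak in any list was assigned to Sox9, Mmd2, Zcchc24, Hes1 or Fabp7. Thus 1 of the 7 genes had a GR CORT peak, against 26.3% of all protein-coding genes, 2 had an MR CORT peak, against 30.2%, and 2 had an MR washout peak, against 14.3%.

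The genes whose densities over the 6 lists were closest to each member were sought among protein-coding genes with a window of at least 100 kb, by the Euclidean distance of log2(1 + peaks per 100 kb). For Nfia they were Gucy1a2 (0.017) and Fry (0.033), each with 1 GR and 1 MR CORT peak. For Nfib they were Bri3 (0.080) and Sdccag8 (0.098), and for Nfic Depdc1b (0.065) and Phf21b (0.167). Nfix was farther from its nearest genes, Por (0.347) and Plec (0.529), both of which had peaks in the same 4 lists. With so few peaks per gene, a near-identical profile says little, and how many genes come as near was not counted.

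The limit of 20 kb left some peaks just outside. An MR CORT peak lay 21.7 kb from Nfic (8.66). Beyond Nfix, GR CORT had a peak at 34.8 kb (7.38), MR had one at 35.6 kb both after CORT (14.94) and after washout (10.38), and GR washout had one at 39.8 kb (13.35). Inside the limit but outside the gene bodies were the Nfix peaks 15.3 and 13.1 kb upstream of the gene. So were an Nfix MR CORT peak 11.8 kb and an Nfic GR CORT peak 6.3 kb beyond the 3' end. With a reach of 50 kb, the 4 windows held 21 GR and 20 MR CORT peaks, in place of 16 and 17.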

How the data were processed

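ChIP-nexus reads were quality filtered, aligned to mm10 with Bowtie2, cleared of PCR duplicates by random barcode and restricted to uniquely mapped reads by the authors. Per the labels and methods, peaks were called with MACS2 2.1.1.20160309 on combined replicates against input, at a false discovery rate of 0.05. Each deposited peak list holds a score (the whole part of 10 times the −log10 q), a −log10 p, a −log10 q and the summit offset from the peak's start, some under headings that name other quantities, and the assignment used here was read from the values. Deposited MACE lists hold border pairs with a p-value per pair. The GR CORT border pair list carries no p-values and was not used, which leaves 8. It holds far fewer pairs than the authors report for GR after CORT, so GR footprints after CORT could not be looked for. Total reads are not given in these lists, so depth could not be used.

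From these lists, summits were assigned to genes of GENCODE M21 on the 21 main chromosomes. Peaks tied in −log10 p share the best rank, overlap required 1 bp, densities have exact Poisson and shares Wilson intervals (95%, counting error only), and motifs were scanned in the GRCm38 RefSeq sequence (both patterns read the same on either strand). Named peaks were the strongest CORT peak per receptor and gene, those with washout peaks, those nearest an annotated start, and the remaining members by range. The members and gene lists were chosen with earlier results of these data known. No test was run, since each condition has 1 combined list. Scripts used Python 3.11.15, numpy 2.4.6, pandas 2.3.3, scipy 1.17.1 and pysam 0.24.0, and were tested on simulated peaks. Alternatives were other reaches, thresholds, gene bounds, backgrounds, overlap rules and mismatch limits, and leaving out each gene.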

Additional observations from a re-analysis of the deposited data

How the results depend on the processing

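Of 66 alternatives to 13 results, 58 gave a value within the 95% interval of the value reported. The intervals rest on few peaks and are wide, and most alternatives recount the same peaks, so this count says little about robustness. Requiring a −log10 q of at least 5 lowered GR CORT to 0.647 peaks per 100 kb at the 4 genes, and all protein-coding windows to 0.267. With summits within 50 bp as the rule, MR CORT matched 25% of the GR CORT peaks, and 45.5% of the whole list. The GRE share turned on the mismatches allowed. At most 2 gave 6.25% of the GR CORT and 17.6% of the MR CORT peaks (10.5% and 11.5% of the lists), and at most 4 gave 93.8% and 88.2% (79% and 82.1%). The 17.6% for MR counts 1 Nfib stretch at neighbouring peaks of the same site. An exact AGAACA, chosen after the data were seen, gave 56.2% for GR CORT. At most 1 mismatch left 0% of GR CORT peaks with an NF-1 match, against 1.41% of the list. With as many MR as GR CORT peaks, MR CORT had 1.11 peaks per 100 kb (0.579 in all protein-coding windows). No peak of the 4 genes overlapped a vehicle peak or an input border pair. No paired analysis was possible because each condition has 1 list of combined replicates, and for the same reason no replicate could be left out.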
